A study of Mus musculus with 16 samples.

Results

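Genes that make, inactivate and read out sex steroids were followed in the mesenchyme of the mouse bladder and pelvic urethra. The set held 9 genes, taken by symbol from the 55228 gene symbols of the deposited count table, and all 9 passed the filter on low counts that left 18254 genes for testing. By role they were the steroid 5-alpha-reductase family (Srd5a1, Srd5a2, Srd5a3), oestrogen and progesterone receptors (Esr1, Esr2, Pgr), the oestrogen-responsive gene Greb1, and the oestrogen-metabolising enzymes Sult1e1 and Cyp1b1. RNA came from wild-type CD-1 embryos at embryonic day 16.5, and CD-1 is an outbred stock. Bladder and urethral mesenchyme of females and of males made 4 groups, each with 4 libraries and none given any treatment. Each litter gave a pool of female and a pool of male tissue, and bladder and urethra came from the same pool, so the replicate number was taken to mark a litter (n = 4 litters per group). How many embryos made a pool is not stated in the sources used. Epithelium had been removed mechanically after trypsin.

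Testosterone reaches the urogenital mesenchyme from the fetal testis and is reduced there by steroid 5-alpha-reductase to dihydrotestosterone, the more potent androgen that drives masculine growth of the urethra, prostate and external genitalia. Oestrogens act through the nuclear receptors encoded by Esr1 and Esr2, which bind oestrogen response elements in DNA and raise genes such as Pgr and Greb1. Local oestrogen levels are lowered by sulfation, which Sult1e1 carries out, and by hydroxylation, which Cyp1b1 carries out.

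Total counts ran from 18577097 to 22293812 in the 8 bladder libraries and from 24447435 to 29698009 in the 8 urethra libraries. Genes tied to the sex chromosomes matched the label in 16 of 16 libraries. The 8 mesenchyme markers summed to 16439 to 20731 CPM (reads scaled to a common library total after TMM, edgeR's trimmed mean of M-values) in bladder. They summed to 10362 to 12614 CPM in urethra, where 5 of the 8 were lower and 2 higher over both sexes. The tissues were not free of other cells. A list of 13 epithelium genes, for example the keratins and uroplakins, summed to 1934 to 3935 CPM in female bladder, 4061 to 4866 in male bladder, 653 to 1834 in female urethra and 1663 to 2237 in male urethra. Of these 13 genes, 9 were lower and 1 higher in urethra over both sexes, and 0 were called by sex in either tissue with edgeR. Krt5, Epcam and Grhl2 averaged higher in urethra in each sex. Krt5 was at 178 and 252 CPM in female and male bladder and at 267 and 343 in urethra, and Epcam at 78.9, 105, 93.0 and 135. Whether the lower sums in urethra meant less epithelium or another kind of it was not tested. Of the 13 genes, 6 were higher in male bladder and 7 in male urethra at an unadjusted p under 0.05 (edgeR). DESeq2 and limma-voom each called 2 higher in male urethra. The libraries lowest in them within a tissue were female bladder replicate 3 and female urethra replicates 3 and 4, and calls of the 9 genes that changed without these 3 libraries are given both ways. Smooth muscle (7 of 7) and mesothelium genes (3 of 4) were lower in urethra, and skeletal muscle (7 of 7), neuron (7 of 7) and genital duct genes (5 of 6) were higher. Endothelium genes (5 of 5) and immune cell genes (3 of 5) were also higher. The part of these cell types in the tissue differences of the 9 genes was not tested. In bulk RNA, fewer cells of a type and less RNA per cell cannot be told apart.

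Promoter sequence is shown for the 4 genes that differed most between the sexes in the urethra, of which the first 3 were higher in males and the last lower. Each run is the 250 bases before the start site in RefSeq (GRCm38.p6), 5′ to 3′ on the gene's strand. Capitals mark GGTCA or its reverse complement TGACC, the core of an oestrogen response element, and GCGTG or its reverse complement CACGC, the core bound by the aryl hydrocarbon receptor, a ligand-activated regulator of Cyp1b1.
Srd5a2, chr17:74047861-74048110, minus strand: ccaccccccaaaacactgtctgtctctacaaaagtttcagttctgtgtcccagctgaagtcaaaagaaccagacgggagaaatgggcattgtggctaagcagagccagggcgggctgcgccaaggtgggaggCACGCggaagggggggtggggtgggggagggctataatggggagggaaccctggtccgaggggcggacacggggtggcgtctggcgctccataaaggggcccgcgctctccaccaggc
Cyp1b1, chr17:79715062-79715311, minus strand: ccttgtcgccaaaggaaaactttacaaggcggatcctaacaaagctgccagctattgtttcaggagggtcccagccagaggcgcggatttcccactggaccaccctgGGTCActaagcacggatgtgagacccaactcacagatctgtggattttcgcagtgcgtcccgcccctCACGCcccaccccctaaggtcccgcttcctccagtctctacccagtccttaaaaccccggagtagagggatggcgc
Sult1e1, chr5:87591612-87591861, minus strand: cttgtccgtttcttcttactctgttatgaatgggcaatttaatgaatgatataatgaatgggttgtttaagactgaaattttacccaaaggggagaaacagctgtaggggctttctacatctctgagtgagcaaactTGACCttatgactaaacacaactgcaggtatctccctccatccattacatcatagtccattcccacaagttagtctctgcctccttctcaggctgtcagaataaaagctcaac
Esr1, chr10:4611739-4611988, plus strand: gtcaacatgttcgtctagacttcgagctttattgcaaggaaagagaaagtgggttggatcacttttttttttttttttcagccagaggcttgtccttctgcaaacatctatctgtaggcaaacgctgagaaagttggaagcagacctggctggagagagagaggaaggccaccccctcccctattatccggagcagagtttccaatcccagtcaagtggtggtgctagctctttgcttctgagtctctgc
Srd5a2 held 1 aryl hydrocarbon receptor core, first base at -118 from the start site, and Sult1e1 held 1 oestrogen core at -113. Cyp1b1 held both, the oestrogen core at -143 and the aryl hydrocarbon receptor core at -76. Esr1 had no match in these bases, and its oestrogen core began at 16 after the start. In the full window of 300 bases, with 50 after the start, the oestrogen core lay in Esr1, Esr2, Greb1, Sult1e1 and Cyp1b1, and the aryl hydrocarbon receptor core in Srd5a1, Srd5a2, Esr1, Greb1 and Cyp1b1, counting either of 2 promoters listed for Esr1 and for Greb1. The promoters of Srd5a3 and Pgr held none of the motifs searched. Of 32851 mouse promoters of that length, 40.48% held the oestrogen core and 32.39% the aryl hydrocarbon receptor core. The androgen core AGAACA, in 18.97% of promoters, and the palindromes GGTCANNNTGACC (0.07%) and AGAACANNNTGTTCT (0.01%) were in no promoter of the 9 genes. The Sult1e1 promoter was poor in CpG, with 1 CpG and 40.0% GC, beside 15 CpG and 62.7% GC in Srd5a2 and medians of 7 CpG and 52.7% GC over all promoters. A match is a description of letters only, and no binding was measured.

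**Figure D1:**
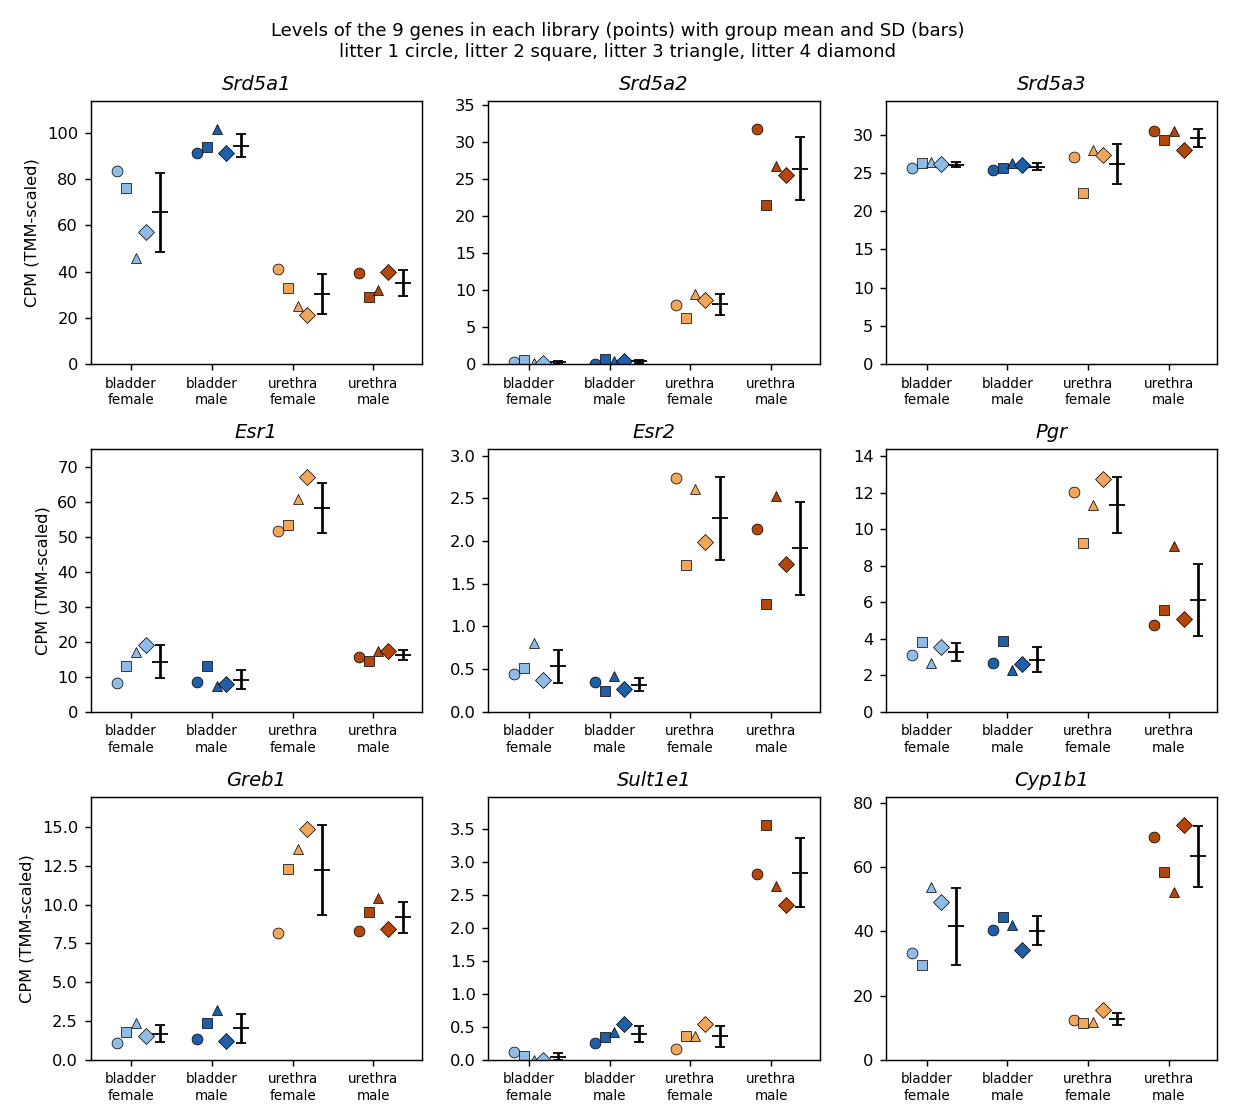
Level of each of the 9 genes (CPM on TMM-scaled totals, vertical axis from 0) in every library, with group on the horizontal axis; symbols mark the litters, and the bars give the mean and SD of 4 libraries. Srd5a2 and Sult1e1 stand highest in male urethra (26.4 and 2.84 CPM on average), Esr1 in female urethra (58.1 CPM), and Cyp1b1 lowest in female urethra (12.7 CPM).

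Most of the 9 genes differed between the tissues. Over both sexes 6 of the 9 were higher in urethra (Srd5a2, Esr1, Esr2, Pgr, Greb1, Sult1e1), 2 were lower (Srd5a1, Cyp1b1) and Srd5a3 did not pass, by edgeR's quasi-likelihood F test with Benjamini-Hochberg adjustment over all 18254 genes and a threshold of 0.05, used throughout. Tissue differences were wide across the transcriptome: 36.5% of all tested genes were called higher and 38.5% lower, so the count alone says little, and sizes are given beside it. The median size of the log2 difference, whatever its sign, was 1.44 for the 9 genes and 0.42 for all genes, and the signed medians were 1.44 and -0.03. The 9 genes were chosen with earlier results of these data known. Counts and medians over them, here and between the sexes, thus describe the set and do not test it. Within females 6 were higher and 2 lower (background 32.6% and 33.1%), and within males 8 were higher and 1 lower (background 31.4% and 32.6%). Scaling by library totals alone shifted the median of all genes by 0.136 on the log2 scale over both sexes and turned the share of calls that were higher from 48.7% to 60.8%. That shift was larger than the Srd5a3 difference itself and small beside those of the other genes.

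Between the sexes more of the 9 genes were called in urethra than in bladder. The median size of the log2 difference was 0.527 in bladder, beside 0.1 for all genes, and 0.891 in urethra, beside 0.118. More calls in 1 tissue do not show that a sex difference differs between the tissues, which the interaction below tests. In bladder, male against female, 1 of the 9 genes was higher (Sult1e1) and 0 lower, where 0.247% and 0.334% of all genes were called. With edgeR, DESeq2 and limma-voom alike the count of lower genes in bladder was 0, and 1 gene (Esr1) was lower at an unadjusted p under 0.05. In urethra, 3 were higher in males (Srd5a2, Sult1e1, Cyp1b1) and 2 lower (Esr1, Pgr), where 3.97% and 2.42% of all genes were called. All of these 5 differences had the same direction in 4 of 4 litters and no overlap between the groups. The same was true of Srd5a3, which was not called (adjusted p = 0.148, edgeR). The share of all genes with this pattern was not counted, so it adds no support to the calls. The sex difference itself differed between the tissues, tested as an interaction, for 1 gene higher (Cyp1b1) and 0 lower, beside 0.537% and 0.131% of all genes. DESeq2 called 1 gene lower (Esr1) and limma-voom 0, and 2 (Esr1, Pgr) had an unadjusted p under 0.05 with edgeR. Comparisons share libraries: each urethra group enters both a tissue and a sex comparison.

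**Figure D2:**
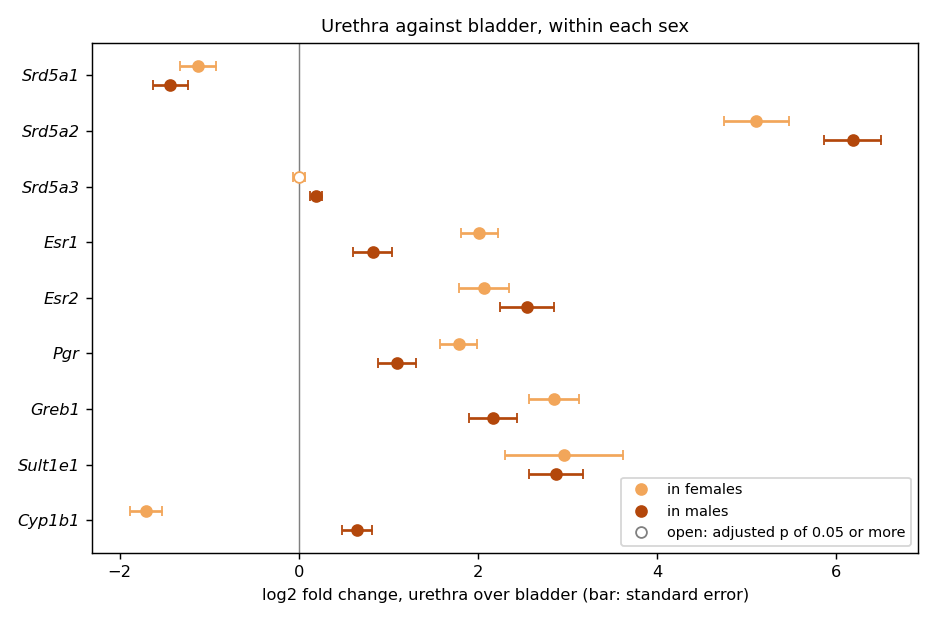
Log2 fold change of urethra over bladder (horizontal axis) for each gene, in females and in males separately, with the standard error as a bar and open points where the adjusted p was 0.05 or more. Srd5a2 lies farthest to the right (5.11 in females, 6.18 in males), and Cyp1b1 lies on opposite sides of 0 (-1.70 in females, 0.65 in males).

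Srd5a2 (chr17:74016955-74047916, minus strand, GRCm38), the 5-alpha-reductase classically tied to the urogenital tract and prostate, was close to undetected in bladder and clear in urethra. Its CPM by litter 1 to 4 were 0.224, 0.511, 0.101 and 0.106 in female bladder and 0.0502, 0.633, 0.370 and 0.376 in male bladder. They were 8.04, 6.18, 9.52 and 8.63 in female urethra and 31.8, 21.5, 26.8 and 25.6 in male urethra. Every urethra library stood above every bladder library, and every male urethra library above every female one. The urethra exceeded the bladder by 5.11 ± 0.36 (SE) on the log2 scale in females (adjusted p = 4.65e-09, edgeR) and by 6.18 ± 0.32 in males (adjusted p = 1.48e-10). The female value rests on few bladder counts and rose to 5.80 without female bladder replicate 2, the highest of its group. Male urethra exceeded female urethra by 1.70 ± 0.21 (adjusted p = 7.91e-05), a 3.26-fold difference. In bladder the sex difference was 0.63 ± 0.58 (adjusted p = 0.743), and the interaction did not pass (1.07 ± 0.66, adjusted p = 0.749). Both sizes depend on single bladder libraries: without female bladder replicate 2 the bladder value was 1.30 and the interaction 0.42, and without male bladder replicate 2 the bladder value was 0.20, and neither passed with any single library left out.

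Srd5a1 (chr13:69573449-69611442, minus strand), the 5-alpha-reductase of broader distribution, ran the other way. Its CPM were 83.5, 76.1, 45.8 and 57.4 in female bladder and 91.3, 94.0, 101.8 and 91.4 in male bladder. They were 41.1, 33.1, 25.3 and 21.3 in female urethra and 39.4, 29.0, 32.0 and 40.0 in male urethra. Bladder libraries were all above urethra libraries, and male bladder lay above female bladder without overlap, while the urethra groups overlapped. The urethra was lower, with a log2 difference of -1.12 ± 0.20 in females (adjusted p = 1.44e-04) and of -1.43 ± 0.20 in males (adjusted p = 1.34e-05). Male bladder differed from female bladder by 0.53 ± 0.20, which did not pass (adjusted p = 0.266, edgeR), and male from female urethra by 0.22 ± 0.20 (adjusted p = 0.615). Srd5a1 moved with the epithelium genes. Within each female group, replicates 3 and 4 had the lowest Srd5a1 levels, and also the lowest epithelium sums (1934 and 2523 CPM in bladder, 1015 and 653 in urethra). With the mean log2 level of the 13 epithelium genes as a term in the fit, the tissue difference over both sexes went from -1.28 ± 0.14 to -0.52 (adjusted p = 1.04e-04), that of females to -0.33 (adjusted p = 0.0135) and that of males to -0.70 (adjusted p = 1.88e-05). With that term the sex difference in urethra turned to -0.24 (adjusted p = 0.168), and without the 3 libraries low in epithelium genes to -0.08 (adjusted p = 0.877). The epithelium term itself followed tissue. It was 7.82 to 8.12 in male bladder and 6.62 to 7.10 in male urethra, and 6.78 to 7.74 and 5.28 to 6.82 in females. A tissue difference fitted with this term therefore cannot tell epithelium from tissue, for Srd5a1 and for the other genes below.

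**Figure D3:**
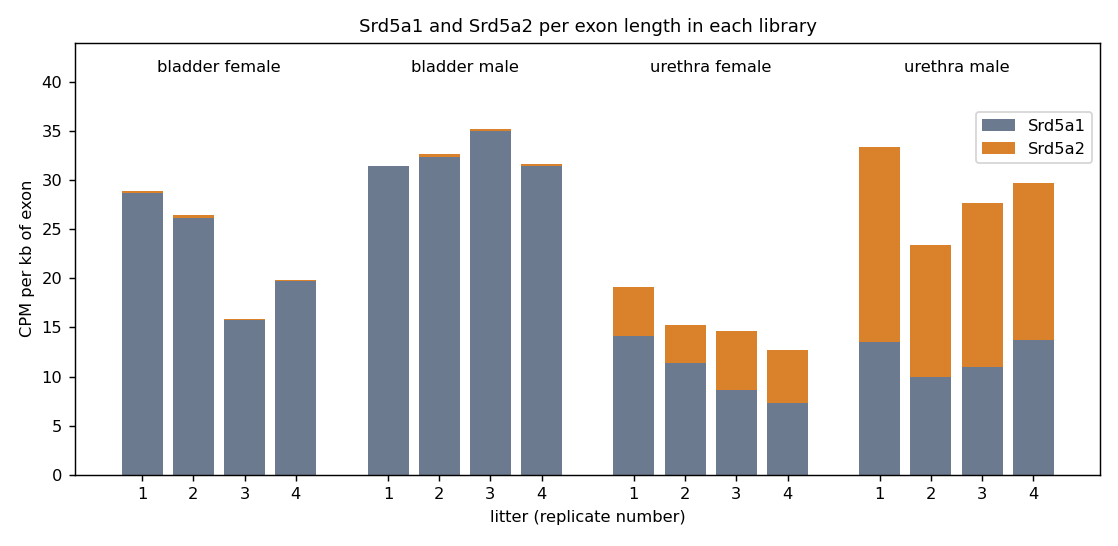
Srd5a1 and Srd5a2 in each library as stacked bars in CPM per kb of exon (vertical axis from 0), which scales each gene by its exon length in the count table. The length of the transcripts present was not measured. The horizontal axis gives the litter within each group. Srd5a2 is a thin cap in bladder (mean share 0.605% in females, 0.675% in males), 33.6% of the bar in female urethra and 57.7% in male urethra.

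Per kb of exon, Srd5a1 was the larger part of the pair in 12 libraries and Srd5a2 in the 4 of male urethra. Srd5a2 made up 0.605% ± 0.403 (SD, n = 4) of their sum in female bladder and 0.675% ± 0.453 in male bladder. Its share was 33.6% ± 9.11 in female urethra (26.2, 25.3, 40.6 and 42.3% by litter 1 to 4) and 57.7% ± 2.93 in male urethra (range 53.7 to 60.3%), so the urethra groups did not overlap. Female urethra replicates 3 and 4, with the higher shares, are the libraries low in epithelium genes and in Srd5a1. The sum of both was 22.7 ± 6.003 CPM per kb in female bladder, 32.8 ± 1.74 in male bladder, 15.4 ± 2.69 in female urethra and 28.5 ± 4.16 in male urethra. The sum was thus higher in male than in female urethra in every library, although Srd5a1 alone was not called there. These shares and sums were not tested.

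Srd5a3 (chr5:76140271-76155504, plus strand), a family member best known as a polyprenol reductase of protein glycosylation, was nearly flat. Its CPM were 25.6, 26.3, 26.4 and 26.1 in female bladder and 25.4, 25.6, 26.3 and 26.0 in male bladder. They were 27.1, 22.3, 28.0 and 27.4 in female urethra and 30.5, 29.4, 30.4 and 28.0 in male urethra. Only the male urethra group lay wholly above the bladder groups. Urethra against bladder gave 0.01 ± 0.07 on the log2 scale in females (adjusted p = 0.92, edgeR) and 0.20 ± 0.07 in males (adjusted p = 0.0168). The male call was lost with the epithelium term (0.11, adjusted p = 0.324). Over both sexes the difference was 0.10 ± 0.05 (adjusted p = 0.0603), and 12 of 25 alternatives put it past the threshold, for example library totals alone (0.24, adjusted p = 3.36e-04) and leaving out female urethra replicate 2 (0.14, adjusted p = 0.00332), so its side of the threshold is not settled. The sex difference was -0.01 ± 0.07 in bladder (adjusted p = 0.969) and 0.17 ± 0.07 in urethra (adjusted p = 0.148), where the groups did not overlap. Its direction in bladder turned with library totals (0.01) or with no filter on low counts (0.01).

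Esr1 (chr10:4611593-5005614, plus strand), oestrogen receptor alpha, was most abundant in female urethra. Its CPM were 8.22, 13.2, 16.96 and 18.95 in female bladder and 8.38, 13.04, 7.32 and 8.06 in male bladder. They were 51.5, 53.2, 60.6 and 67.0 in female urethra and 15.8, 14.5, 17.5 and 17.4 in male urethra. The female urethra stood apart from all other libraries, while male urethra and female bladder overlapped. Male urethra was lower than female urethra, with a log2 difference of -1.83 ± 0.20 (adjusted p = 2.97e-05, edgeR), a 3.56-fold difference. Urethra exceeded bladder by 2.02 ± 0.21 in females (adjusted p = 4.14e-07) and by 0.82 ± 0.21 in males (adjusted p = 0.00307), and the male call was lost with the epithelium term (0.46, adjusted p = 0.173). In bladder the sex difference was -0.64 ± 0.22 (adjusted p = 0.217); among 25 alternatives it passed only when female bladder replicate 1, the lowest of its group, was left out (-0.85, adjusted p = 0.0355). The interaction was -1.19 ± 0.29 with edgeR (adjusted p = 0.0962) and -1.19 with DESeq2 (adjusted p = 0.0101), so whether the sex difference differs between the tissues depends on the tool.

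Esr2 (chr12:76120419-76177259, minus strand), oestrogen receptor beta, was scarce in every group and higher in urethra, and no sex difference passed. Its CPM were 0.448, 0.511, 0.810 and 0.372 in female bladder and 0.351, 0.243, 0.417 and 0.269 in male bladder. They were 2.73, 1.72, 2.61 and 1.99 in female urethra and 2.14, 1.26, 2.53 and 1.73 in male urethra. All urethra libraries were above all bladder libraries, and the sexes overlapped in both tissues. Urethra exceeded bladder by 2.07 ± 0.27 on the log2 scale in females (adjusted p = 5.32e-06, edgeR) and 2.55 ± 0.30 in males (adjusted p = 1.6e-06). The sex difference was -0.73 ± 0.38 in bladder (adjusted p = 0.465) and -0.25 ± 0.22 in urethra (adjusted p = 0.584), lower in males in 4 of 4 litters in each tissue without passing. Per kb of exon, Esr1 exceeded Esr2 by 7.15 ± 3.69 times (SD, n = 4) in female bladder, 7.70 ± 3.88 in male bladder and 6.57 ± 1.68 in female urethra, and by 2.21 ± 0.544 in male urethra, whose highest library (2.85) lay below the lowest of every other group.

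Pgr (chr9:8899833-8968611, plus strand), the progesterone receptor and a textbook oestrogen target, was likewise highest in female urethra. Its CPM were 3.13, 3.81, 2.68 and 3.56 in female bladder and 2.66, 3.89, 2.27 and 2.63 in male bladder. They were 12.04, 9.22, 11.3 and 12.7 in female urethra and 4.74, 5.59, 9.06 and 5.08 in male urethra. Urethra was above bladder throughout, and the highest male urethra library (9.06) lay just below the lowest female one (9.22). Urethra exceeded bladder by 1.78 ± 0.21 on the log2 scale in females (adjusted p = 1.26e-06, edgeR) and by 1.09 ± 0.21 in males (adjusted p = 2.7e-04). Male urethra was lower than female urethra (log2 difference -0.89 ± 0.19, adjusted p = 0.009, edgeR). That call was lost without the 3 libraries low in epithelium genes (-0.80, adjusted p = 0.110) and with the epithelium term (-0.81, adjusted p = 0.0669). In bladder the sex difference was -0.20 ± 0.23 (adjusted p = 0.811).

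Greb1 (chr12:16670615-16800886, minus strand), a coactivator and early oestrogen target, was higher in urethra. Its CPM were 1.06, 1.76, 2.38 and 1.54 in female bladder and 1.30, 2.38, 3.19 and 1.18 in male bladder. They were 8.20, 12.3, 13.6 and 14.9 in female urethra and 8.30, 9.54, 10.4 and 8.43 in male urethra. The tissues did not overlap and the sexes did. Urethra exceeded bladder by 2.85 ± 0.28 on the log2 scale in females (adjusted p = 1.85e-07, edgeR) and by 2.17 ± 0.27 in males (adjusted p = 3.02e-06). The sex difference was -0.42 ± 0.23 in urethra (adjusted p = 0.353), or -0.16 without the 3 libraries low in epithelium genes (adjusted p = 0.865), and 0.26 ± 0.32 in bladder (adjusted p = 0.823), where it turned to -0.07 without male bladder replicate 3.

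Beside the genes lower in male urethra, the 6 genital duct genes summed to 64.2 to 77.99 CPM in female urethra and 32.6 to 52.7 in male urethra, against 6.10 to 27.9 in female and 2.90 to 11.2 in male bladder. Of these, 1 of 6 was called lower in male urethra, and the median log2 difference of the list was -0.04. The lower male sum lay in Wnt7a, a gene of the Müllerian duct, which averaged 29.1 CPM in females and 8.56 in males, and in the Müllerian hormone receptor Amhr2 (8.01 and 1.53 CPM). The others differed little or ran the other way in urethra, with Pax8 at 6.89 CPM in females and 6.34 in males, Emx2 at 17.9 and 18.3, Pax2 at 5.31 and 6.99 and Lhx1 at 2.82 and 3.79. Lhx1 was at 0 in 2 female bladder libraries and 1 male one, and Wnt7a in 1 male bladder library. Their part in the Esr1, Pgr, Esr2 and Greb1 differences was not tested.

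**Figure D4:**
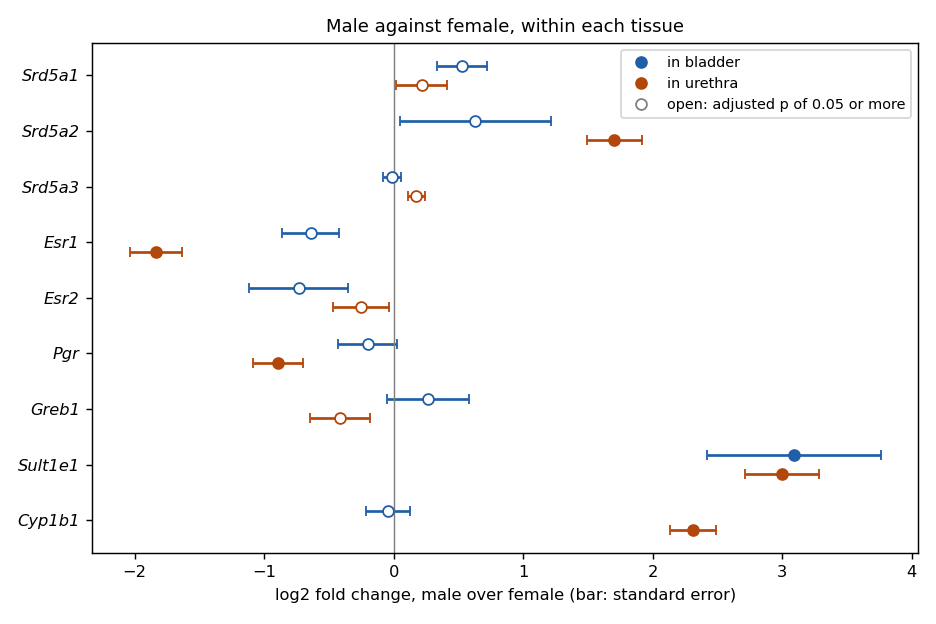
Log2 fold change of male over female (horizontal axis) for each gene, in bladder and in urethra, with the standard error as a bar and open points where the adjusted p was 0.05 or more. Sult1e1 lies near 3 in both tissues, Cyp1b1 is at -0.05 in bladder and 2.31 in urethra, and Esr1 reaches -1.83 in urethra.

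Sult1e1 (chr5:87575969-87591594, minus strand), the oestrogen sulfotransferase, had the highest log2 sex difference of the 9 genes in both tissues. Its CPM were 0.112, 0.0568, 0 and 0 in female bladder and 0.251, 0.341, 0.417 and 0.537 in male bladder, from 3 and 31 counts in all. They were 0.159, 0.361, 0.355 and 0.540 in female urethra, from 41 counts, and 2.81, 3.57, 2.63 and 2.35 in male urethra. Males were above females without overlap in both tissues, and female urethra overlapped male bladder. The libraries at 0 allow a level of up to 0.152 and 0.159 CPM (3 counts each, counting error only). In urethra males exceeded females by 3.00 ± 0.29 on the log2 scale (adjusted p = 4.13e-06, edgeR), a 7.99-fold difference. In bladder the fitted value, which depends on the small prior count edgeR adds, was 3.09 ± 0.67 (adjusted p = 0.0484), and as a ratio of counts scaled to depth 9.48 (95% exact interval 2.96 to 48.5, counting error only). That bladder call is marginal: it was lost in 16 of 24 alternatives (adjusted p 0.0207 to 0.19), among them litter as a replicate block (3.09, adjusted p = 0.0632), leaving out the 3 libraries low in epithelium genes (2.69, adjusted p = 0.0899) and the omission of 13 single libraries, such as female bladder replicate 4 (2.70, adjusted p = 0.19), though males were higher in 4 of 4 litters. Without female bladder replicate 1, which held 2 of the 3 female counts, it was 4.07 (adjusted p = 0.0343).

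Sult1e1 also exceeded its bladder level in urethra, by 2.96 ± 0.65 on the log2 scale in females (adjusted p = 8.02e-04, edgeR; ratio of counts 8.65, 95% exact interval 2.76 to 43.7) and by 2.87 ± 0.30 in males (adjusted p = 4.59e-07). The female value was 3.97 without female bladder replicate 1 (adjusted p = 5.56e-04), 2.08 without the 3 libraries low in epithelium genes (adjusted p = 0.0302) and 2.16 with the epithelium term (adjusted p = 0.0339). With that term the male value was 2.14 (adjusted p = 0.00152). The interaction was -0.09 ± 0.39 (adjusted p = 0.991).

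Cyp1b1 (chr17:79701537-79715061, minus strand), a cytochrome P450 that hydroxylates oestradiol and is a target of the aryl hydrocarbon receptor, was the only one of the 9 genes whose sex difference was called different between the tissues by edgeR. Its CPM were 33.3, 29.7, 54.0 and 49.2 in female bladder and 40.5, 44.6, 41.9 and 34.1 in male bladder. They were 12.4, 11.4, 11.7 and 15.5 in female urethra and 69.3, 58.6, 52.3 and 73.2 in male urethra. Female urethra was below all other libraries, and male urethra overlapped female bladder but not male bladder. Male urethra exceeded female urethra by 2.31 ± 0.18 on the log2 scale (adjusted p = 4.86e-07, edgeR), a 4.97-fold difference, while the bladder difference was -0.05 ± 0.17 (adjusted p = 0.961). The interaction was 2.36 ± 0.25 (adjusted p = 9.87e-05), higher in 4 of 4 litters, and it passed in 24 of 24 alternatives (2.22 to 2.52). Urethra against bladder was -1.70 ± 0.18 in females (adjusted p = 5.06e-07) and 0.65 ± 0.17 in males (adjusted p = 0.00311), so the value over both sexes (-0.53 ± 0.12, adjusted p = 0.00102) averages opposite changes: 4 pools rose and 4 fell. The male call was lost with the epithelium term (0.30, adjusted p = 0.276). Cyp1b1 and Srd5a2, both higher in male urethra, lie 5.65 Mb apart on chromosome 17.

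**Figure D5:**
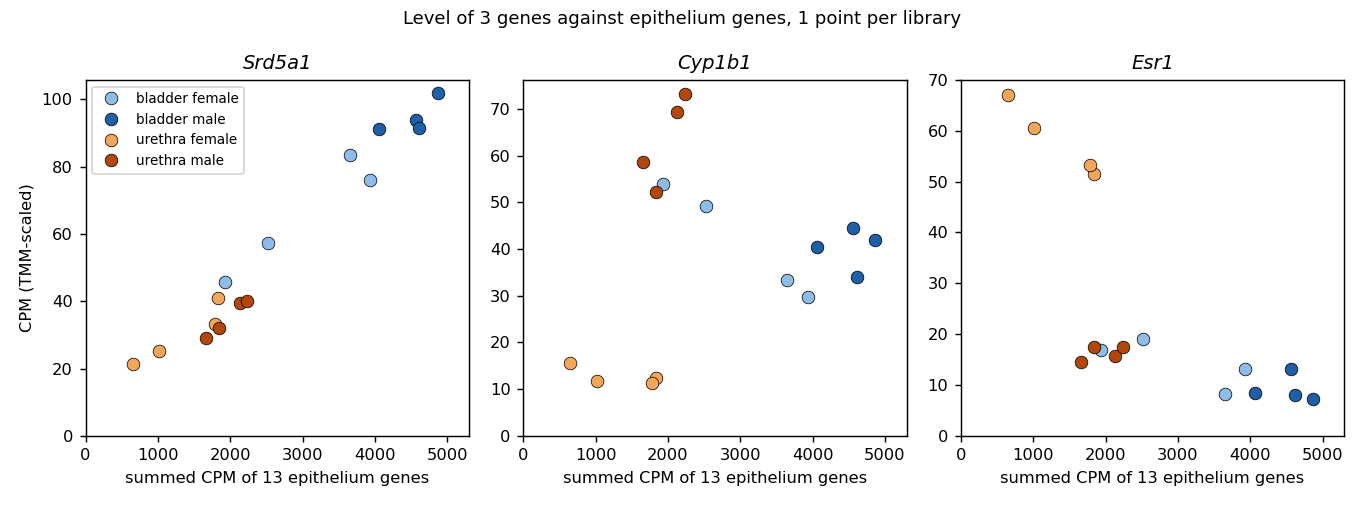
CPM of Srd5a1, Cyp1b1 and Esr1 (vertical axes from 0) against the summed CPM of 13 epithelium genes (horizontal axis), 1 point per library, 16 libraries. Srd5a1 rises with the sum from 21.3 CPM at a sum of 653 to 101.8 at 4866. Cyp1b1 and Esr1 separate male from female urethra, whose sums overlap only in part (1663 to 2237 in males, 653 to 1834 in females).

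Of the 5 sex differences called in urethra, 4 passed both without the 3 libraries low in epithelium genes and with the epithelium term, and Pgr passed neither. In that order, Srd5a2 was 1.89 and 1.73 on the log2 scale (adjusted p = 0.00149 and 0.00165, edgeR). Sult1e1 was 3.47 and 3.53, Cyp1b1 2.41 and 2.56, and Esr1 -1.69 and -1.58. All 4 kept the direction seen with all 16 libraries, and so did Pgr, at -0.80 and -0.81 beside -0.89. Without the 3 libraries, female urethra kept only replicates 1 and 2. The part of the smaller number of libraries in the lost Pgr call was not tested. The epithelium term followed sex in urethra, at 5.28 to 6.82 in females and 6.62 to 7.10 in males. A sex difference fitted with it therefore cannot tell epithelium from sex.

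Ordered by CPM per kb of exon, Srd5a1 led in female bladder (22.6 ± 5.92, SD, n = 4), followed by Cyp1b1 (7.11 ± 2.03) and Srd5a3 (5.61 ± 0.0715), which did not differ beyond their spread. Male bladder had the same first genes, with Srd5a1 at 32.5 ± 1.70, Cyp1b1 at 6.90 ± 0.765 and Srd5a3 at 5.56 ± 0.0876. In female urethra the order was Srd5a1 (10.4 ± 3.01), Srd5a3 (5.64 ± 0.563), Srd5a2 (5.04 ± 0.881) and Esr1 (4.25 ± 0.524), the last 3 within the spread of their neighbours. In male urethra Srd5a2 (16.5 ± 2.64) led Srd5a1 (12.1 ± 1.88) and Cyp1b1 (10.8 ± 1.65), with Srd5a1 and Cyp1b1 within their spread, and Sult1e1 (2.29 ± 0.419) ranked above Esr1 (1.19 ± 0.103). Esr2 was at or below 0.673 CPM per kb in every group mean. Orders and ratios per kb depend on the exon lengths of the count table, for example 13661 bases for Esr1 and 1242 for Sult1e1. The length of the transcripts present was not measured.

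Genes of like pattern were the 2 with the smallest mean absolute difference from each gene in centred log2 CPM over the 16 libraries. For Srd5a1 they were Sh3bgrl2 (0.091) and Gstm4 (0.111). For Srd5a2 they were Dner (0.598) and Gpr149 (0.676), and Dner averaged 0.793, 1.596, 16.3 and 45.3 CPM in bladder of females and males and in urethra of females and males. Esr1 was closest to Slc26a7 (0.295) and Ntsr1 (0.336), and Pgr to Adamts19 (0.213) and Slc1a2 (0.217). Cyp1b1 was closest to Tfcp2l1 (0.282) and Zbtb16 (0.312), and Zbtb16 averaged 12.7, 17.7, 3.46 and 17.02 CPM in the same order. Sult1e1 was closest to Ros1 (0.520) and Cnmd (0.563), Greb1 to Tub (0.128) and Astn1 (0.138), Esr2 to Pcdhb9 (0.185) and Pcdhb10 (0.264), and Srd5a3 to Mccc2 (0.0446) and Xab2 (0.0502). The distance is smaller for genes that vary little, so it does not rank the genes against each other.

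Other genes of the pathways were taken from 5 lists. Of their 57 tested genes 0 were called by sex in bladder with edgeR or limma-voom, while DESeq2 called 1 in each direction, and 7 higher and 5 lower had an unadjusted p under 0.05 with edgeR. Of 16 steroid synthesis genes in the table, 8 passed the filter, and Cyp17a1, Cyp19a1, Hsd3b1, Hsd3b6, Hsd17b3, Hsd17b6, Akr1c6 and Akr1c18 did not. Of the 8, 5 were lower and 1 higher in urethra over both sexes, beside 38.5% and 36.5% of all genes. Among the lower were the cholesterol carrier Star (-0.87 ± 0.17 on the log2 scale, adjusted p = 1.6e-04, edgeR) and the electron donor Fdx1 (-0.77 ± 0.08). Hsd17b12 was higher (0.21 ± 0.05). Star was scarce, at 0.926 and 0.843 CPM in female and male bladder and 0.499 and 0.456 in urethra. Between male and female urethra 0 of the 8 were called with edgeR, DESeq2 or limma-voom, and 2 were higher at an unadjusted p under 0.05. Of all genes, 3.97% were called higher and 2.42% lower there with edgeR.

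Among 12 tested genes of steroid and catechol inactivation, 6 were lower and 3 higher in urethra, beside 38.5% and 36.5% of all genes. Hsd17b2, which oxidises oestradiol and testosterone to weaker steroids, was lower, from 15.3 to 1.85 CPM (log2 difference -3.02 ± 0.25, adjusted p = 1.82e-08, edgeR), and so was Hsd17b14, at -2.43 ± 0.17. Hsd17b2 averaged 10.7 and 19.9 CPM in female and male bladder and 1.38 and 2.32 in urethra. In the same order the epithelium gene Upk2 averaged 139, 245, 26.2 and 46.2 CPM, and Krt5, of the same list, 178, 252, 267 and 343. Of the 13 epithelium genes, 9 were lower and 1 higher in urethra over both sexes. The part of leftover epithelium in the Hsd17b2 and Hsd17b14 differences was not tested. Sult2b1 (2.34 ± 0.29) and Papss1 (0.59 ± 0.04) were higher. Between male and female urethra, 3 were higher and 1 lower, beside 3.97% and 2.42% of all genes. The phenol sulfotransferase Sult1a1 went from 4.40 to 10.3 CPM (1.23 ± 0.15, adjusted p = 8.66e-05), and Papss2, which makes the sulfate donor that Sult1e1 uses, from 11.6 to 22.8 CPM (0.98 ± 0.11, adjusted p = 2.21e-05). Cyp7b1 was higher in males (0.46 ± 0.09), and Papss1, the other sulfate donor synthase, lower (-0.30 ± 0.05, 263 to 214 CPM). The interaction was called for Papss2 (1.33 ± 0.15, adjusted p = 2.17e-04), Sult1a1 (1.35 ± 0.22, adjusted p = 0.00596) and Cyp7b1 (0.62 ± 0.13, adjusted p = 0.0292), as for Cyp1b1.

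Of 19 other steroid receptors, coregulators and chaperones, 8 were higher and 5 lower in urethra, beside 36.5% and 38.5% of all genes. Among those called, the tissue difference was highest for the orphan receptors Esrrg (2.16 ± 0.12 on the log2 scale) and Esrrb (0.98 ± 0.31). It was lowest for Esrra (-1.06 ± 0.07) and the glucocorticoid receptor Nr3c1 (-0.57 ± 0.05). Esrrb was scarce, at 0.227 and 0.236 CPM in female and male bladder and 0.482 and 0.446 in urethra. In male against female urethra 2 of the 19 were higher and 0 lower, beside 3.97% and 2.42% of all genes. The counts were the same with edgeR, DESeq2 and limma-voom, and 2 were lower at an unadjusted p under 0.05 (edgeR). The chaperone Fkbp5, a known androgen and glucocorticoid target, went from 56.9 to 126 CPM (1.15 ± 0.11, adjusted p = 4.64e-06, edgeR; interaction 1.06 ± 0.16, adjusted p = 0.00217), and the corepressor Nrip1 was higher by 0.38 ± 0.08 (adjusted p = 0.0117).

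Of 12 tested oestrogen-responsive genes, 7 were higher and 2 lower in urethra, beside 36.5% and 38.5% of all genes. The receptor tyrosine kinase Ret, also a gene of peripheral neurons, was highest (4.06 ± 0.39 on the log2 scale), followed by Ltf (2.45 ± 0.75). Ltf was at 3.87 in males (adjusted p = 0.00228, edgeR) and 1.03 in females (adjusted p = 0.43), up in 2 of 4 litters of females. Its level was low, at 0.187 and 0.125 CPM in female and male bladder. In urethra it was 0.412 CPM in females and 1.88 in males, where it ranged from 0.214 to 4.68. C3 (-0.96 ± 0.15) and Xbp1 (-0.15 ± 0.06) were lower. The 7 neuron genes summed to 36.4 to 331 CPM over the bladder libraries and 1233 to 2016 over the urethra libraries, and their part in the Ret difference was not tested. Only Lcn2 was called between male and female urethra (1.52 ± 0.44, adjusted p = 0.0477, edgeR), higher in 3 of 4 litters, and limma-voom called 0 of the 12. Lcn2 was scarce, averaging 0.533 CPM in female urethra and 1.53 in male urethra (range 0.428 to 3.04). Of all genes, 3.97% were called higher there. Of 6 tested genes of the aryl hydrocarbon receptor pathway, 5 were lower in urethra, beside 38.5% of all genes, with Nqo1 lowest (-0.87 ± 0.07). Tiparp was higher in male than in female urethra (0.42 ± 0.10, adjusted p = 0.0169), at 32.5 against 24.3 CPM, though its level was higher still in bladder (34.5 CPM in females, 37.3 in males). Ahrr, the receptor's repressor, was lower in male urethra in 4 of 4 litters without passing (-0.60 ± 0.19, adjusted p = 0.0803).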

How the data were processed

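The deposited table held counts of read pairs per gene symbol, with exon length in bases, made by the authors with featureCounts (paired mode, strand setting 2), per the file headers. The submitters' processing notes name bcl2fastq, HISAT2 2.1.0, SAMtools, Subread 1.6.3 and the GRCm38 build. No release of the annotation is stated in the sources used. The deposited table normalized with DESeq2 was not used.

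Counts were fitted in R 4.3.3 with edgeR 4.0.16 (filterByExpr, TMM, robust quasi-likelihood F test), 1 fit of 4 groups and 16 libraries, with Benjamini-Hochberg adjustment over 18254 genes and a threshold of 0.05. SE is the size of the log2 difference over the root of F. Over both sexes, 8 libraries a tissue hold each of 4 litters once per sex, so they are not 8 independent litters. Levels are CPM on TMM-scaled totals, and log2 CPM used a prior count of 2. The script was tested on simulated data. DESeq2 1.42.0 and limma 3.58.1 (voom) were alternatives, with other scalings, no filter, replicate blocks, groups fitted alone and each library left out.

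The sample titles give a replicate number and do not name a litter. That the number marks a litter is read from the account of the pools given above. Deviations from group means correlated between the bladder and urethra library of a pool by 0.0921 to 0.409 (median 0.194, 8 pairs, 7 over 0.1). Those of the sexes within a litter and tissue correlated by -0.0475 to 0.265 (median 0.123, 8 pairs, 4 over 0.1). Libraries of a group differed beyond sampling noise (chi-squared per degree of freedom 4.72 to 36.7 over 24 pairs).

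The 9 genes, the pathway lists and the marker lists were chosen with earlier results of these data known. Named from the lists were the 2 called genes with the highest and the 2 with the lowest tissue difference, and every gene called by sex; 1 gene that this rule names is not reported here. The genital duct markers and Ahrr were named after their values were seen. Promoters came from RefSeq (GRCm38.p6), where 9 of 9 genes matched; figures were drawn with matplotlib 3.10.9.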

Additional observations from a re-analysis of the deposited data

Results flagged for a closer look

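Cyp1b1 was singled out because its sex difference differed between the tissues: the interaction was 2.36 on the log2 scale (edgeR, adjusted p = 9.87e-05, in the same direction in 4 of 4 litters), with male over female at 2.31 in urethra and -0.05 in bladder.

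Srd5a3 was singled out because 1 library lay far from its group: female urethra replicate 2 was at 22.3 CPM, where the other 3 libraries were at 27.1, 28.0 and 27.4 CPM. The gap to the nearest was 0.835 of the range, just above Dixon's 95% critical value for 4 samples. Of 36 groups tested over the 9 genes this was the only one past it, and chance passes about 1 in 20.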

How the results depend on the processing

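Most values kept their direction and their side of the threshold: of 1337 values of single genes over 26 alternatives, 1280 did, 21 lost a call, 14 gained one and 22 turned. The alternatives that left out 3 libraries or added the epithelium term were chosen after seeing the data. For male against female in bladder the count of genes called was 1, and it was 0 with RLE size factors, with the replicate block by litter, with only the groups compared (where Sult1e1 was not tested) and without the 3 libraries low in epithelium genes, and 0 to 2 with single libraries left out. The interaction count was 1, and 2 with DESeq2. The paired fit, with litter as a replicate block, gave 8, 8, 9, 0, 5 and 1 called genes in the 6 comparisons (8 over both sexes also with a block by litter and sex), and changed no other call.

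The values that turned were small ones that did not pass. Srd5a1 in urethra by sex was -0.0841 without the 3 libraries and -0.24 with the epithelium term. Srd5a3 between tissues in females was -0.0663 and -0.0803 in the same settings, and -0.0235 to 0.0785 with single libraries left out; by sex in bladder it was 0.0066 with library totals, 0.0088 with no filter and 0.0342 with the epithelium term. Greb1 by sex in bladder ran from -0.0717 to 0.49 with single libraries left out. The Sult1e1 interaction was 0.16 with limma-voom, 0.79 without the 3 libraries and -1.06 to 0.33 with single libraries left out. Cyp1b1 by sex in bladder was 0.11 without the 3 libraries, 0.19 with the epithelium term and -0.19 to 0.11 with single libraries left out. Depth limits Sult1e1 and Srd5a2 in bladder, which rest on few counts. The cause of these changes was not tested.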
